A study of Cavia porcellus with 27 samples.

Results

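DNA methylation was compared in the prefrontal cortex of newborn guinea pigs (Cavia porcellus) whose mothers had been given betamethasone or saline. The comparison rests on all 4622 CpG positions in the table that the authors deposited for postnatal day (PND) 1, of 6627 positions listed in the series over both ages. A CpG is a cytosine followed by a guanine, the main site of DNA methylation in mammals. The mothers received the betamethasone or the saline while pregnant, at what the labels write as gestational day 50/51. All offspring were female. At PND1 there were 7 animals per treatment. The juvenile cohort, sampled at PND14, had 7 saline and 6 betamethasone animals. The labels give no strain, dose or litter, so animals of a group may share a mother. Both groups were measured by reduced representation bisulfite sequencing (RRBS), which reads CpG-rich DNA fragments after a bisulfite treatment that leaves methylated cytosine intact.

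Betamethasone is a synthetic glucocorticoid that crosses the placenta and is given before a threatened preterm birth to mature the lungs of the fetus. It binds the glucocorticoid receptor, a transcription factor that neurons and glia of the prefrontal cortex also express. The prefrontal cortex takes part in planning, attention and the restraint of stress hormone release. In mammalian DNA most CpGs are methylated, while CpG-dense stretches such as many promoters are kept free of the mark, and CpGs between these states are where levels can differ most between animals or cell types.

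At each CpG the table gives the coverage and the methylated reads of either treatment as a single number. These numbers were taken to be totals of 7 animals, although nothing in the labels or headers says so. Its case columns were read as betamethasone and its control columns as saline, because the design text names saline as the control. Every direction below would turn round if that reading were wrong. A level here means methylated reads in percent of coverage, and a difference is betamethasone minus saline in percentage points. Intervals are 95% intervals from the read counts (Wilson for a level, Newcombe for a difference) and cover counting error only. The table has no value of a single animal, and the spread between animals is therefore unknown. The tissue is bulk cortex, and a shift in cell types cannot be told apart from a shift within a cell type. Positions lie on scaffolds known by number. The build is not named in the labels or headers and no gene was assigned to them, so the tissue label could not be checked against marker genes. Coverage per CpG ran from 10 reads to 1811 after betamethasone (median 112) and to 1955 after saline (median 117). Both treatments had at least 50 reads at 3333 CpGs (72.1%), and 496 CpGs (10.7%) had under 20 reads in at least 1 treatment.

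The differences were not spread evenly over the listed CpGs. They were large on scaffold_0, scaffold_1, scaffold_10 and scaffold_100, the first 4 scaffolds in the order of the table, and small on most of the other 145. Some others matched or passed the median size of 8.35 points on scaffold_0. Among these were scaffold_102 (12.7 points, 20 CpGs), scaffold_119 (13.2 points, 14 CpGs) and scaffold_625 (8.36 points, 30 CpGs). The 161 CpGs on the first 4 scaffolds are 3.48% of the list. The median size of their difference was 12.8 points (quartiles 6.45 and 19.2), against 2.75 points (quartiles 1.01 and 6.12) at the other 4461 CpGs. A difference of at least 10 points stood at 102 of the 161 (63.4%) and at 530 of the 4461 (11.9%). Depth was alike, with a median of 114 reads in the shallower treatment on the first 4 scaffolds and 108 on the others. The median standard error from read counts was larger on the first 4 scaffolds, 5.63 points against 4.16. On the first 4 scaffolds 125 CpGs were higher after betamethasone and 36 lower, with mean levels of 43.6% after saline and 52.2% after betamethasone. On the others 2181 were higher and 2260 lower, with means of 62.4% and 62.3%. This split was noticed in the values, so it is given as a description with no test.

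The authors' deposited table gives 2 p-values and a false discovery rate (FDR) for each CpG. The first p-value and the FDR divide at the same place. The second p-value was at most 8e-05 on both sets of scaffolds. Every listed CpG has an FDR under 0.05, so that 100% of the table is called by that rule. The first p-value was under 0.05 at 81 of the 161 CpGs on the first 4 scaffolds (50.3%) and at 283 of the 4461 others (6.34%), against 7.88% of all 4622 CpGs. Its median was 0.0474 on the first 4 scaffolds and 0.400 on the others. By single scaffold, that share was 43.1% on scaffold_0 (51 CpGs), 45.6% on scaffold_1 (79 CpGs), 73.1% on scaffold_10 (26 CpGs) and 80% on scaffold_100 (5 CpGs). On the 76 other scaffolds with at least 10 listed CpGs it ran from 0% to 30.8%, with a median of 5.93%, and the highest was scaffold_70 with 13 CpGs.

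**Figure D1:**
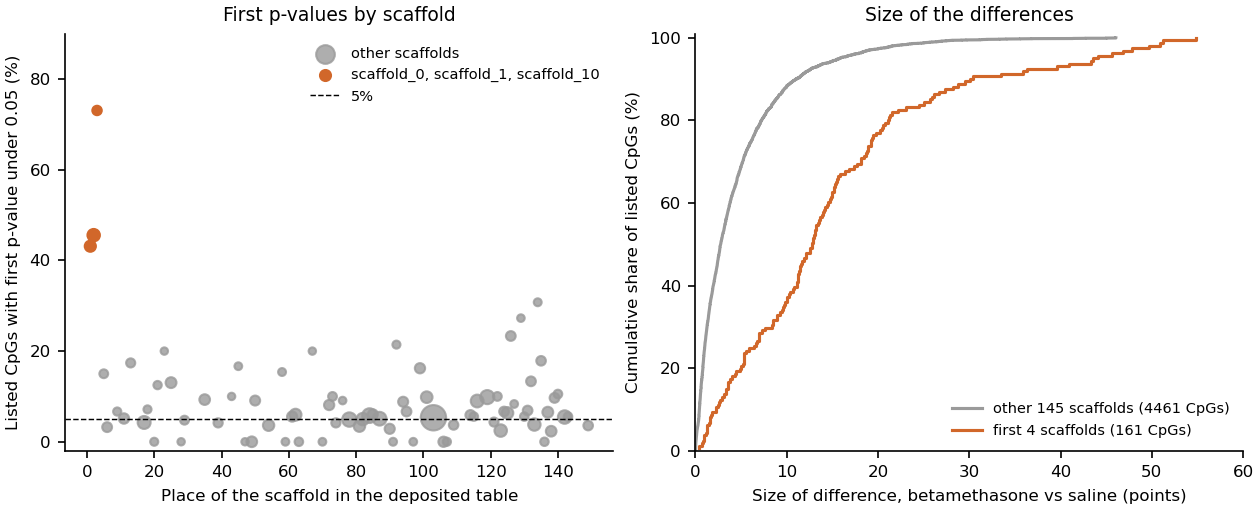
Left: for each scaffold with at least 10 listed CpGs, its place in the deposited table (x) and the percentage of its listed CpGs whose first p-value is under 0.05 (y); point area grows with the number of CpGs and the dashed line marks 5%. Right: cumulative share of CpGs (y) by size of the difference in points (x), for the first 4 scaffolds and the other 145. The 3 scaffolds at the left edge lie between 43.1% and 73.1%, above all others, and the curve of the first 4 scaffolds lies to the right of the other.

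The FDR ran the other way. Its median in the authors' deposited table was 0.0240 on the first 4 scaffolds and 0.00395 on the others, and all 1393 CpGs with an FDR deposited as 0 lay on the others. The lowest FDR on the first 4 scaffolds was 0.00026. Adjacent CpGs less than 100 bp apart had nearly the same second p-value throughout (Spearman's rho 0.90 over 132 pairs on the first 4 scaffolds and 0.96 over 3224 pairs on the others). Their first p-values went together only on the first 4 scaffolds (rho 0.38, against 0.02 on the others), and their differences went together more closely there (rho 0.66 against 0.14). These correlations are over CpG pairs that share animals, libraries and often reads. Among regions of at least 2 CpGs, formed by joining listed CpGs less than 1000 bp apart, 19 of 21 on the first 4 scaffolds had 1 or more CpGs whose first p-value was below 0.05 (90.5%), and 187 of 647 on the others did (28.9%). On most scaffolds a low FDR therefore did not stand beside a low first p-value or a large difference at the same CpG or its listed neighbours. The cause was not tested. Whether the second p-value and the FDR belong to the CpG in whose row they stand could not be settled from the table. As deposited, the FDR of the other 4461 CpGs was under 0.05 too, and the tests behind the p-values are not known.

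The PND14 table, from other animals, divided at 3 of the same names and lists no CpG on scaffold_100. On scaffold_0, scaffold_1 and scaffold_10 it lists 47 CpGs, 26 of them with a first p-value under 0.05 (55.3%), against 89 of its 1958 other CpGs (4.55%). The median size of the difference was 15.9 points on these 3 scaffolds and 3.36 points on its other 72. Of the 47 CpGs, 29 were higher after betamethasone and 18 lower, with a mean difference of 2.31 points. At PND1 the first 4 scaffolds had 125 higher and 36 lower, with a mean of 8.58 points.

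The deeply read part of the list gives levels with the least counting error. Of 410 regions with at least 4 listed CpGs, 182 had at least 50 reads per treatment at every CpG. Each listed position was counted as a CpG here, also where positions 1 bp apart may be the strands of a single CpG. Read that way, some of these regions hold fewer than 4 CpGs, such as those at 73765934 on scaffold_1 and 44404890 on scaffold_4. In 17 of the 182, holding 80 CpGs, all listed CpGs differed in 1 direction, 8 higher after betamethasone and 9 lower. A region of few CpGs can also have 1 direction by counting error alone. How many would was not tested, so the count of 17 is a description only. The mean differences of the 17 ran from -18.6 to 16.6 points, and 6 reached 10 points, 4 higher and 2 lower. All 6 lay on scaffold_0, scaffold_1 and scaffold_10. Below, gain and loss name the direction of a difference, whether or not it passed a test. In the 165 deep regions with mixed directions the mean ran from -5.70 to 9.67 points, with a median size of 0.78 points.

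The deep region with the largest gain lay on scaffold_0 at 3190833 to 3190902. Its 4 CpGs had levels of 21.6%, 25%, 26.1% and 18.1% after saline and 36.6%, 39.5%, 41.9% and 39.5% after betamethasone. The differences of 14.9, 14.5, 15.8 and 21.3 points all had counting intervals above 0, the widest from 4.22 to 25.1. The fourth CpG, with 29 of 160 reads methylated against 73 of 185, rose by Fisher's exact test (two-sided, Benjamini-Hochberg adjusted over all 4622 CpGs, p = 0.0165). By this test 7 of the 4622 CpGs (0.151%) rose or fell, 6 of them higher (0.130%) and 1 lower (0.0216%). The 7 are not all separate measurements. A pair of them on scaffold_0 and another on scaffold_67 lie close together at nearly equal coverage, and can share reads. The test compares pooled reads and leaves out variation between animals. Its adjustment runs only over CpGs that the authors had already listed at an FDR under 0.05. Unlisted CpGs are left out of it, so the adjusted p-values do not hold for all CpGs measured. Without adjustment 320 CpGs (6.92%) had a Fisher's exact p under 0.05, of which 80 were among the 161 on the first 4 scaffolds (49.7%).

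A second deep gain on scaffold_0, at 4938109 to 4938243, had 7 CpGs and a step inside it. The 3 CpGs up to 4938157, covered by 141 to 142 saline and 174 to 176 betamethasone reads, had mean levels of 49.9% and 69.9% (differences of 19.2 to 21.2 points). The 4 CpGs from 4938197 on differed by 5.26 to 9.50 points, and each of their counting intervals included 0. The largest of the 7, 21.2 points at 4938157 (interval 10.1 to 31.6), had a Fisher's exact adjusted p of 0.0743. CpGs with equal coverage can lie on the same reads, so that the 3 large differences are not separate measurements.

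On scaffold_1 the deep gain at 12188172 to 12188350 stood next to a second gain. Its 6 CpGs had levels of 21.6%, 39.7%, 40.5%, 37.7%, 14.9% and 27.7% after saline. After betamethasone they were 36.0%, 50.4%, 52.0%, 43.1%, 28.8% and 43.1%, all higher, by 5.37 to 15.5 points. The next listed CpG lies 1153 bp further on and opens a run of 18 CpGs that were also all higher, though read by only 16 to 37 reads per treatment. Joined, the 24 CpGs between 12188172 and 12189617 had mean levels of 27.6% (saline) and 48.3% (betamethasone), a difference of 20.7 points. None of the 24 passed the adjusted Fisher's exact test.

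The fourth gain of over 10 points, on scaffold_1 at 73765934 to 73765943, packs 6 positions into 10 bp that are taken as both strands of 3 CpGs. Positions 73765934, 73765940 and 73765942, with 238 to 244 reads, were higher by 9.72, 9.80 and 5.89 points. Their partners 1 bp on, with 82 to 107 reads, were higher by 12.1, 9.27 and 15.6 points. The region was chosen for having 1 direction throughout, so the like direction within each pair is no separate result. Of the 6 intervals 3 included 0, and the lowest Fisher's exact adjusted p was 0.592. The 6 positions had mean levels of 45.9% after saline and 56.3% after betamethasone.

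Both deep losses of over 10 points were on scaffold_10 and were even along the region. At 45822346 to 45822409 the 4 CpGs had 16, 22, 18 and 21 methylated of 60 reads each after saline, and 4, 9, 6 and 9 of 51 to 52 after betamethasone. The differences ran only from -19.4 to -17.7 points, and all 4 intervals lay below 0. At 32971346 to 32971389 the levels were 45.2%, 45.7%, 37.9% and 46.6% after saline and 26.3%, 31.6%, 24.7% and 31.4% after betamethasone. Of these 4 differences, -13.2 to -18.9 points, 3 had an interval below 0. No CpG of either loss passed the adjusted Fisher's exact test.

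**Figure D2:**
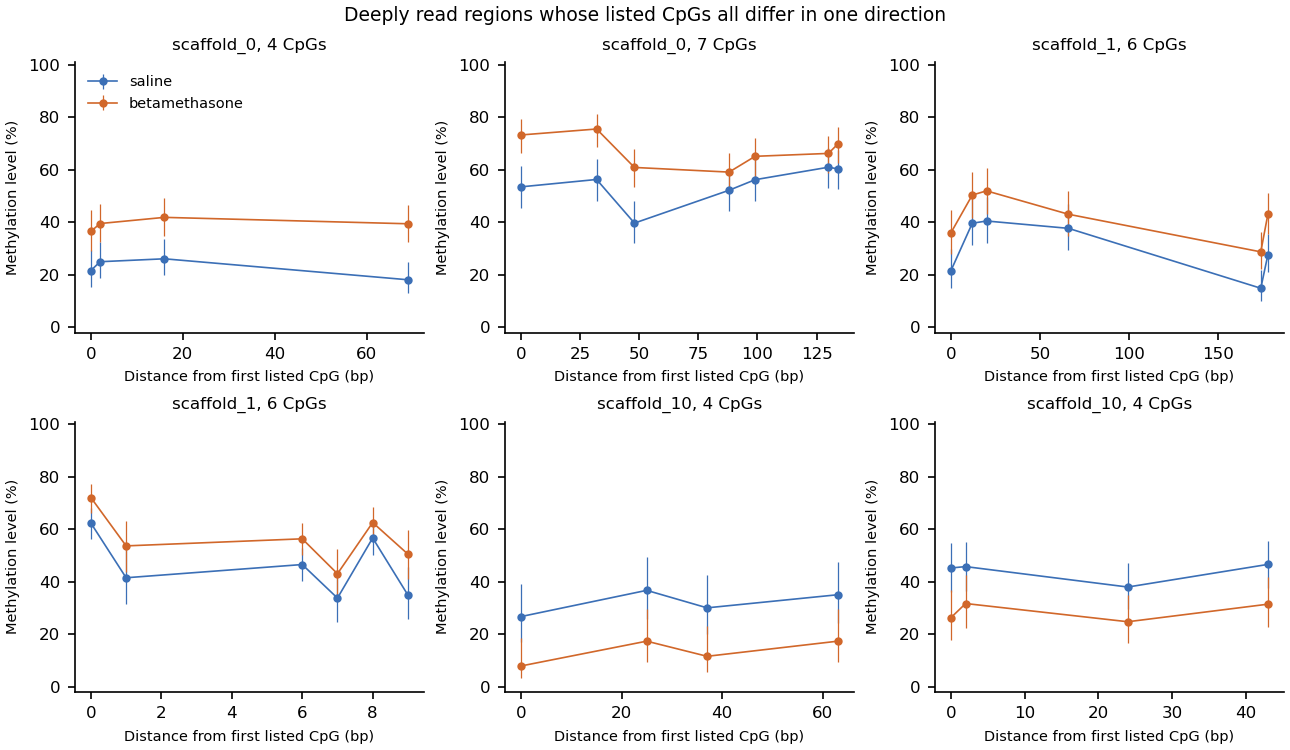
Methylation level in percent (y) of each listed CpG by distance in bp from the first listed CpG of the region (x), for the 4 deep gains and 2 deep losses of at least 10 points; points are summed reads of 7 animals per treatment and bars are Wilson 95% intervals. Betamethasone lies above saline at every CpG of the 4 gains and below it at every CpG of the 2 losses. The regions were chosen for having the same direction at all listed CpGs, so this pattern is no separate result.

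Other deep one-way regions had small differences. After the 4 gains above, the next were on scaffold_7 at 47957239 to 47957276 (65.9% to 72.1%, 6.22 points, SD over 5 CpGs 4.81) and on scaffold_33 at 24466571 to 24466781 (5.19 points, SD over 4 CpGs 5.31). The mean of the latter shrank to 0.95 points when reads were pooled over its CpGs. After the 2 losses came 3 regions of 4 CpGs on scaffold_4, at 44202602 to 44202839 (-7.09 points, SD 6.69), at 44404890 to 44404958 (-5.24 points, SD 6.65) and at 44129872 to 44130080 (-3.12 points, SD 2.84), and 1 on scaffold_125 at 3044910 to 3044950 (-3.48 points, SD over 4 CpGs 3.45). In the second of these on scaffold_4 the mean came mostly from 44404958 (86.8% of 174 reads after saline, 71.8% of 238 after betamethasone). The other 3 positions of that region, among them the partner 1 bp before 44404958, differed by -0.63 to -4.22 points. The 3 on scaffold_4 lie in long stretches of densely listed CpGs, and with CpGs less than 10000 bp apart joined to them their means were -0.45, -0.99 and -1.06 points. 

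The longest region on the first 4 scaffolds, 31 CpGs on scaffold_0 at 81521512 to 81521799, had levels that differed sharply from place to place along its 288 bp. The first 11 CpGs had levels of 13.4% or less, except for 26.9% after saline and 33.3% after betamethasone at 81521604. Then 7 CpGs from 81521644 to 81521703, each with 399 to 401 saline reads and 461 to 462 betamethasone reads, averaged 52.6% after saline and 64.8% after betamethasone. All 7 were higher, by 9.62 to 14.7 points, with every interval above 0. The CpG at 81521714 was nearly fully methylated in both (96.7% and 97.7%), and the last 12 had 18 to 29 reads, levels mostly over 75%, and differences of both signs (-15.4 to 25.9 points).

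Of that region, 2 CpGs rose by the adjusted test, both of intermediate level. At 81521679, 204 of 401 saline reads (50.9%) and 303 of 462 betamethasone reads (65.6%) were methylated, 14.7 points higher (interval 8.12 to 21.1, Fisher's exact adjusted p = 0.0145). The CpG 7 bp further, at 81521686, also passed (13.4 points, interval 6.81 to 19.8, Fisher's exact adjusted p = 0.0466). The remaining 5 had adjusted Fisher's exact p-values of 0.0699 to 0.368. Among the first 11 CpGs the difference furthest below 0 was -6.94 points, at 81521526 (9.41% and 2.46%, interval -12.0 to -2.36), which did not pass the adjusted Fisher's exact test (p = 0.346). Position 81521642, only 2 bp before the step, had 37 and 32 reads where the next CpG had 400 and 462, so the step in level falls where the coverage changes too.

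**Figure D3:**
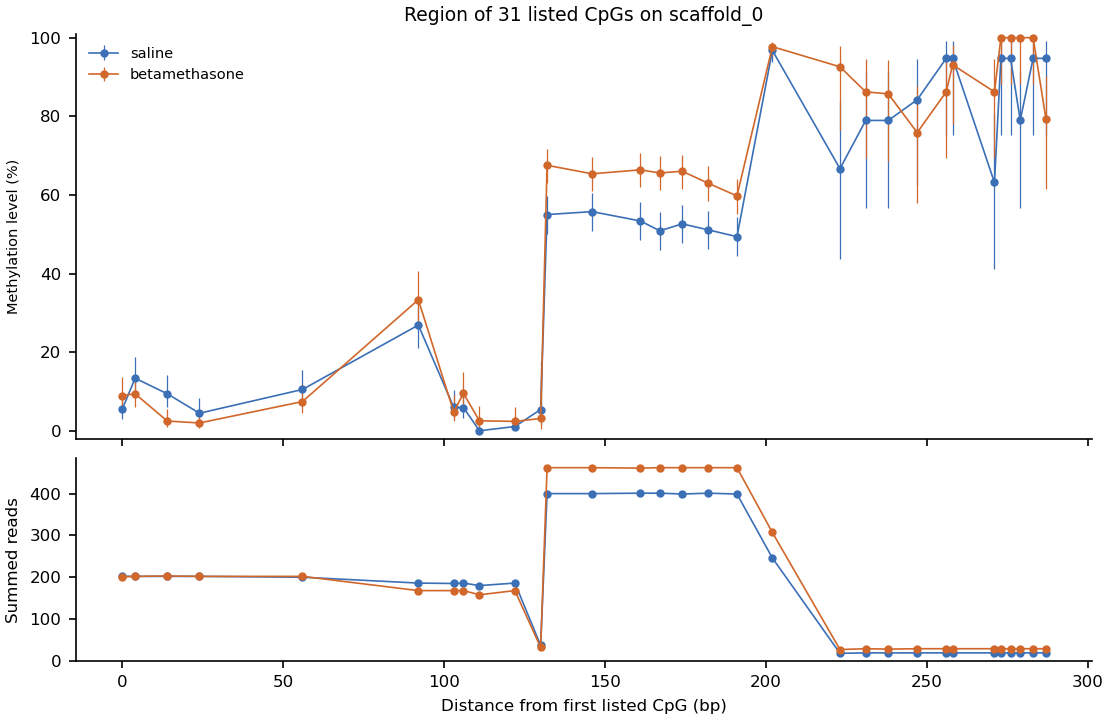
Top: methylation level in percent (y) of the 31 listed CpGs of the scaffold_0 region by distance in bp from its first CpG (x), with Wilson 95% intervals. Bottom: summed reads per treatment (y) at the same CpGs. The separation of the treatments is clearest at the 7 CpGs with 399 to 462 reads, and the low-coverage CpGs at the right have wide, overlapping intervals.

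Of the 125 CpGs on the first 4 scaffolds that were higher after betamethasone, 69 were on scaffold_1, out of its 79, with mean levels of 37.7% after saline and 50.8% after betamethasone. No position of scaffold_1 passed the adjusted test (the pair at 67622633 did when its positions were summed), and 40 had an unadjusted Fisher's exact p under 0.05. Its 20 CpGs at 67622572 to 67622767 were all higher, and most of the larger differences lay in the first part. The 9 CpGs up to 67622634 with 111 to 114 betamethasone reads averaged 28.3% after saline and 40.4% after betamethasone. The 4 with 248 to 250 betamethasone reads, between 67622633 and 67622686, averaged 26.4% and 39.3%. The last 3, from 67622732 on, were higher by only 0.77 to 3.60 points, at levels over 50%. Positions 1 bp apart, taken as the strands of a CpG, differed in part: 67622633 and 67622634 were higher by 14.9 and 12.8 points, but at the next pair, 67622664 and 67622665, by 11.2 and 3.78 points, and at 67622686 and 67622687 by 16.8 and 2.28 points.

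At 73507716 to 73507778 on scaffold_1, 5 CpGs of low level had 2, 1, 2, 3 and 3 methylated reads of 28 after saline and 8, 13, 12, 16 and 19 of 42 to 43 after betamethasone. The levels after betamethasone went up along the 63 bp from 18.6% to 44.2%, with 27.9% at the third CpG, whereas those after saline stayed at 10.7% or less. At 22333270 to 22333360, the 4 CpGs with 27 to 29 reads were higher by 30.4 to 46.8 points (means 44.2% and 84.3%), while the 3 with 29 to 36 reads differed by -8.96 to 13.2 points. Positions 22333317 and 22333318, taken as the strands of 1 CpG, fell in different sets, with differences of -8.96 and 39.7 points. The difference of 39.7 points was thus not seen at the position taken as its other strand.

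One region of scaffold_1 was lower. The first 6 CpGs at 22073022 to 22073091 went from levels of 71.7% to 85.1% after saline to 57.7% to 74.4% after betamethasone, by -9.98 to -18.1 points, with every interval below 0. The largest of these, at 22073034 (131 of 154 reads and 89 of 133), had a Fisher's exact adjusted p of 0.103. The 4 CpGs from 22073209 on had differences from -7.00 points to 43.4 points, the latter at 13 and 11 reads. At the other end of the scale, 4 almost unmethylated CpGs at 67456603 to 67456657 had 0 to 3 methylated reads of 144 to 236 after saline and 5 to 7 of 162 to 276 after betamethasone, 0.90 to 4.32 points higher.

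Scaffold_10 also held the largest mean difference of any region of at least 4 CpGs, on few reads. At 35166305 to 35166362, 6, 6, 5 and 8 of 18 saline reads were methylated and 15, 16, 15 and 16 of 17 to 19 betamethasone reads (mean 49.3 points, every interval above 0). At 47593463 and 47593483 the differences were -18.9 and -44.1 points on 14 to 26 reads. No CpG of either passed the adjusted Fisher's exact test. In a gain of 10 CpGs on scaffold_10 at 15327268 to 15327463, the 6 CpGs from 15327363 to 15327420, with 144 to 157 reads, had mean levels of 67.6% (saline) and 80.2% (betamethasone), each 11.3 to 14.2 points higher with an interval above 0. The 2 CpGs before them were higher by 5.51 and 1.44 points. On scaffold_100 at 3834844 to 3834974, the first 4 CpGs had levels of 81.7%, 78.3%, 73.9% and 58.8% after saline and 93.4%, 89.3%, 86.1% and 75.2% after betamethasone. The fifth, 85 bp further on at 222 and 276 reads, went from 69.8% to 64.9%.

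**Figure D4:**
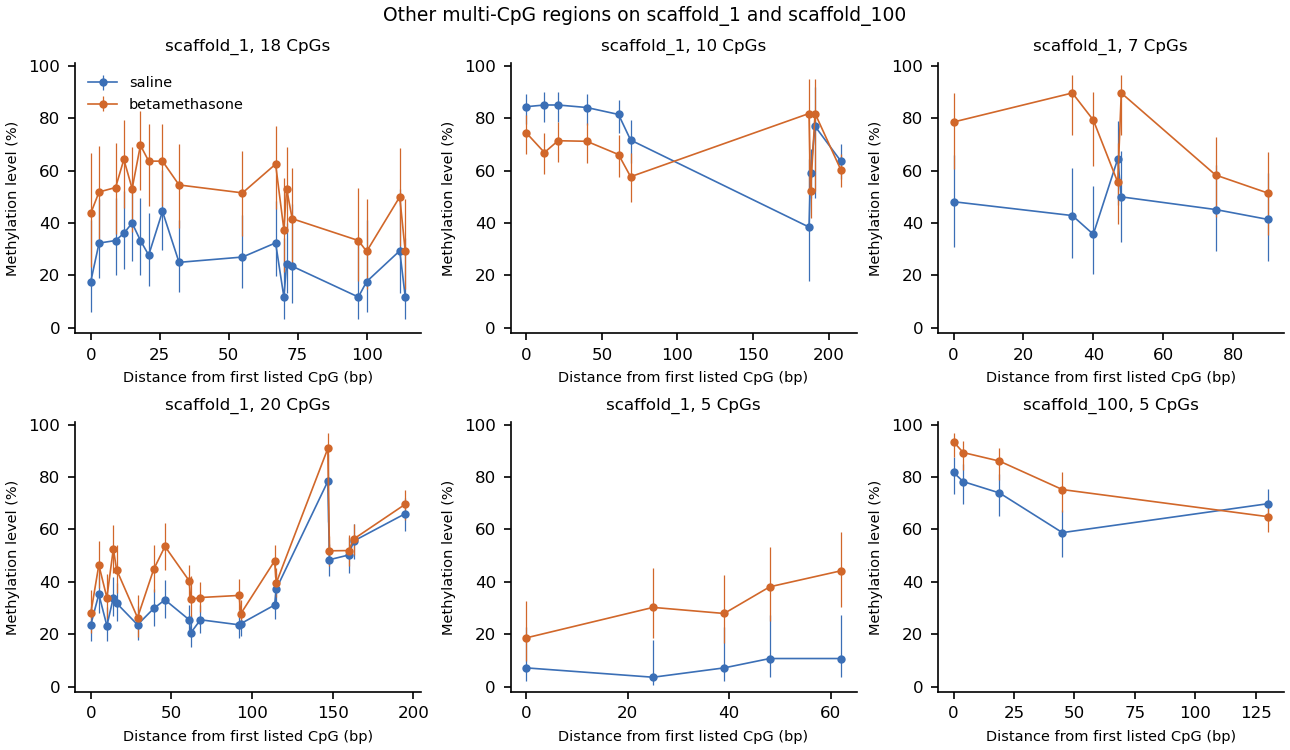
Methylation level in percent (y) of each listed CpG by distance in bp from the first listed CpG (x) in the other regions of at least 5 CpGs on scaffold_1 and in the region on scaffold_100, with Wilson 95% intervals from summed reads. Betamethasone lies above saline at all CpGs of the regions of 18, 20 and 5 CpGs on scaffold_1 and below it at the first 6 CpGs of the region of 10; neighbouring points of opposite direction in the region of 7 are 1 bp apart.

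Counting all 26 regions on the first 4 scaffolds, 21 had at least 2 CpGs, and 15 of these differed in 1 direction throughout, 11 higher and 4 lower. On the other scaffolds that was so in 134 of 647 regions, 64 higher and 70 lower. Not every region on the first 4 scaffolds differed: on scaffold_0, 2 CpGs at 24340315 and 24340334 had 0 methylated reads after saline and 1 each after betamethasone, of 241 to 287 reads, and the pair at 44128644 and 44128645 had 1 to 4 of 221 to 246 in either treatment. Single CpGs on scaffold_10 at 30377282 (0.40% and 1.61%) and 34993239 (2.24% and 0.66%) were as low. Their FDR in the authors' deposited table was 0.0471 or more.

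The other 145 scaffolds held 4 of the 7 CpGs that passed the adjusted Fisher's exact test, in 3 regions. On scaffold_67 at 7858565 to 7858923, 9 of 10 CpGs were higher. The difference was concentrated in the last 4, at 31.5 points (7858871), 9.08 points (7858881), 27.5 points (7858889) and 14.9 points (7858923), each with 140 saline and 106 betamethasone reads. The first p-values of the CpGs at 7858871 and 7858889 in the authors' deposited table were 0.0906 and 0.0941, both above 0.05. At 7858860, 11 bp before the first of these and on like coverage, the levels were 90.7% and 90.5%. At the 2 CpGs that passed, the saline levels of 57.1% and 56.4% stood below those of the other 8 (67.1% to 96.0%), whereas after betamethasone the 10 levels lay between 82.1% and 98.9%.

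On scaffold_117 only 1 CpG of 6 carried the difference. At 3776067 the level was 15.2% after saline (7 of 46 reads) and 60.3% after betamethasone (35 of 58), a gain of 45.1 points (interval 26.8 to 59.0). Its neighbours 22 bp before and 9 bp after, on the same coverage within 1 read, had 91.1% and 84.8% after saline and 93.0% and 91.4% after betamethasone. A single low CpG among highly methylated neighbours at 9 to 22 bp thus accounted for the region.

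The 1 CpG that fell by the adjusted Fisher's exact test, 26209818 on scaffold_25, belongs to a region of 12 CpGs, 26209812 to 26209882, all lower after betamethasone. With 49 reads at its shallowest CpG it missed the limit of 50 for deep regions. The 7 positions with 143 to 149 saline and 176 to 184 betamethasone reads averaged 53.2% after saline and 38.4% after betamethasone (-9.70 to -23.8 points). The 5 positions each 1 bp before one of these, with 49 to 50 and 63 to 64 reads, averaged 52.8% and 49.1% (-1.0 to -5.44 points). At 26209818 the counts were 86 of 144 and 64 of 178 (interval -33.9 to -12.8), and the partner 1 bp before it had 27 of 49 and 33 of 64. With the positions of each pair summed the difference was -18.5 points and the Fisher's exact adjusted p was 0.0591, so that this call was lost. Of the 12 CpGs, 1 had a first p-value under 0.05 by the authors' deposited table.

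The 10 CpGs with the lowest Fisher's exact p among those higher after betamethasone lay in 7 regions, 6 of the 10 CpGs on scaffold_0 and scaffold_1. The 10 among those lower lay in 9 regions, 2 of the 10 on scaffold_0 and scaffold_1. A single CpG on scaffold_166 at 517969 was methylated in 48 of 61 reads after saline and in 52 of 52 after betamethasone (21.3 points, interval 10.4 to 33.1, Fisher's exact adjusted p = 0.0743). Losses included the single CpG 36046018 on scaffold_6 (76.1% of 67 reads and 48.1% of 108, -28.0 points, Fisher's exact adjusted p = 0.0852). On scaffold_64, 1767953 had 75.9% of 29 reads and 36.0% of 50, while its partner 1 bp before had 56% and 55.6%. Others were 3585264 on scaffold_30 (40.6% and 23.9%), 292696 on scaffold_304 (97.8% and 89.8%) and 44488643 on scaffold_4 (78.0% of 59 reads and 46.8% of 47). The largest difference of the list in either direction, -54.8 points at 62694884 on scaffold_0, stood on 22 saline and 15 betamethasone reads, and the 2 listed CpGs beside it differed by -40.9 and -47.9 points.

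Positions 1 bp apart were taken as the strands of a CpG. There were 654 such pairs over 1278 positions. In 47 of them a position also belonged to a second pair, so that some join neighbouring CpGs. In 83 pairs at least 1 position had an unadjusted Fisher's exact p under 0.05, and in 2 pairs both did. Of these 2, the pair at 67622633 on scaffold_1 had the same direction on both strands. The other, on scaffold_2495 at 6389 and 6390, went from 1.38% of 1955 reads to 2.54% of 1811 on one strand and from 29.8% of 57 reads to 11.1% of 36 on the other. Over the 85 positions with a p under 0.05 in such pairs, the median size of the difference was 12.0 points, and the partner had the same direction at 48 and the opposite at 37. Measured in the direction of the first position, the median difference of the partner was 0.40 points, at a median of 126 reads. The 607 pairs that share no position held the same 2 pairs with both positions under 0.05, and the partner had the same direction at 44 of 78 positions. Differences in these pairs were thus mostly not repeated on the second strand, which is read from the same animals.

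Of the 5 regions with most CpGs outside the dense stretches, the region on scaffold_0 described above differed by 4.83 points on average and the other 4 by -0.57 to 1.1 points. The region with most CpGs outside the dense stretches (CpGs less than 100000 bp apart in runs of at least 100) was on scaffold_115 at 1404685 to 1408115. Its 72 CpGs were mostly methylated, with medians of 89.9% after saline and 92.5% after betamethasone and a mean difference of 1.1 points (SD over CpGs 8.28). An FDR of 0 was deposited for 51 of the 72, and 1 had an unadjusted Fisher's exact p under 0.05. On scaffold_37 at 4172636 to 4172962, 37 CpGs were almost unmethylated (means 2.31% and 1.76%, -0.55 points, SD 1.67), at 50 to 298 reads. On scaffold_48, 27 CpGs at 12882096 to 12884664 averaged 93.2% and 92.6% (-0.57 points, SD 2.96).

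The region of 27 CpGs on scaffold_7 at 51192373 to 51193277 shows how closely the treatments followed one another. Its CpGs were near 0 in both (medians 0.77% and 0.85%) except for 51192435 (6.82% and 13.8%), 51193209 (90.3% and 92.8%) and 51193276 (98.5% after saline and 95.4% after betamethasone). The mean difference was 0.16 points (SD 1.85). Sharp local changes of level were thus present in both treatments, with differences of -3.77 to 6.97 points, although every CpG of the region is listed at an FDR of 0.00045 or less.

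**Figure D5:**
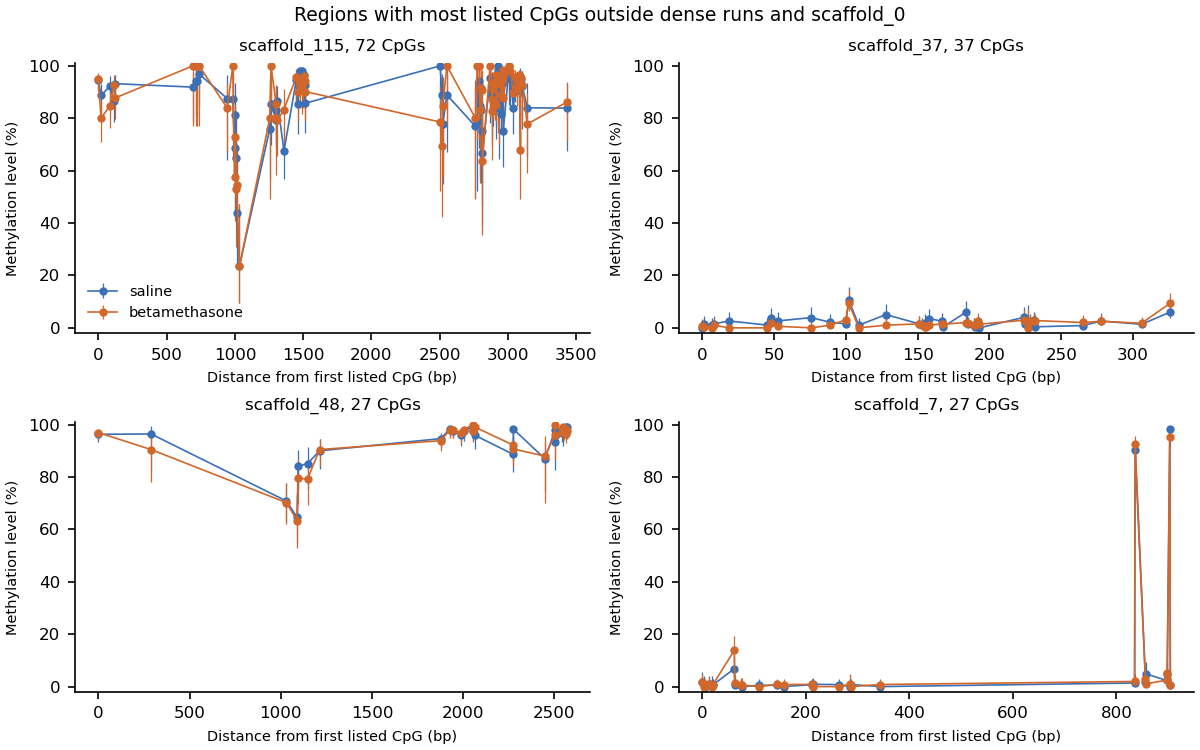
Methylation level in percent (y) by distance in bp from the first listed CpG (x) in the 4 regions with most listed CpGs outside the dense stretches and scaffold_0, with Wilson 95% intervals from summed reads. Both treatments follow the same profile in mostly methylated (scaffold_115, scaffold_48) and mostly unmethylated DNA (scaffold_37, scaffold_7), with single CpGs of scaffold_115 differing by -28.1 to 21.4 points.

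Regions with more CpGs had smaller mean differences and lower FDRs. The median size of the mean difference was 3.78 points in 146 single CpGs, 2.38 in 258 regions of 2 to 3 CpGs, 1.55 in 293 of 4 to 9 and 0.97 in 117 of at least 10. The median of the lowest FDR in a region went from 0.0344 to 0.0188, 0.00682 and 0.00034 in the same order. Averaging over more CpGs by itself lowers the size of a mean, and the lowest of more FDRs is by itself lower. Neither trend is therefore compared by a test. The share of CpGs with a first p-value under 0.05 was 9.59%, 8.63%, 8.35% and 7.17%, close to the 7.88% of the whole list in each.

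By level, the 1298 CpGs between 20% and 80% differed by a median of 6.31 points, with a median standard error (SE) from read counts of 6.37, and 184 of them (14.2%) had an unadjusted Fisher's exact p under 0.05. Below 20% the median size was 0.91 points against an SE of 1.05 (24 of 1052 CpGs, 2.28%), and above 80% it was 2.95 against 3.87 (112 of 2272 CpGs, 4.93%). By depth, at under 20 reads the median size was 8.34 points against an SE of 11.4, and at 150 reads or more 1.36 against 2.42. A difference of 20 points or more stood at 158 CpGs, of which 13 had 50 reads or more in both treatments, 7 higher and 6 lower.

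The list shared no position with that of PND14. Of the 4622 CpGs, 32 in 6 regions lay less than 10000 bp from a CpG listed at PND14, 19 less than 1000 bp and 5 less than 100 bp, the closest at 33 bp. On scaffold_67, 14 CpGs at 9123772 to 9123900 had mean levels of 36.6% (saline) and 36.5% (betamethasone) at PND1, and 5 CpGs 161 bp on averaged 32.5% and 28.8% at PND14. On scaffold_42, 5 CpGs at 5825830 to 5825861 were almost unmethylated at PND1 (0.25% and 0.68%) and lay inside a region of 26 CpGs at PND14 (6.23% and 6.46%). On scaffold_72, 4 CpGs at 3962647 to 3962794 averaged 90.6% and 86.0% at PND1, and a CpG 2688 bp on had 90.8% and 88.5% at PND14. Further on at PND14, 12 CpGs averaged 80.8% and 78.5%, and 2 CpGs 80.6% and 84.8%, the latter higher after betamethasone. None of the regions with a difference of at least 10 points at PND1 was among these 6. Such regions were 66 of all 814 at PND1, so their absence among only 6 carries no information. CpGs measured at PND14 but not listed there were not analysed here, so an unlisted position does not show that levels were alike.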

How the data were processed

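The members are all rows of the PND1 table; they, the regions and the rules were chosen with earlier results of these data known. Per the labels' protocols, libraries were made with an Ovation RRBS kit and a bisulfite kit, and the submitters' processing notes name SAMtools 1.9, Bowtie2 2.3.4.3, Bismark 0.16.0 and Trim Galore. Not given in the sources used here were the build, the caller and its filters, and the tests behind the p-values. Per the file headers, the authors deposited read counts (coverage and methylated reads), a methylated fraction (2 decimals at PND1), 2 p-values and an FDR per CpG and, at PND14, a score for the difference, which was not used. All 4622 positions were used, with no filter beyond the authors' own listing.

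Levels, differences, Wilson and Newcombe 95% intervals and two-sided Fisher's exact tests, with Benjamini-Hochberg adjustment over the 4622, were computed from the counts with SciPy 1.17.1, pandas 2.3.3 and NumPy 2.4.6 in Python 3.11.15, and plotted with Matplotlib 3.10.9. Reads without molecular identifiers are not independent molecules. The test and the intervals were tested on simulated data, with reads drawn at the deposited coverages and a known difference added at a set of CpGs. Regions join CpGs less than 1000 bp apart. Named items are the 6 largest mean gains and losses among deep one-way regions (at least 4 listed positions, 50 reads), the 10 lowest Fisher p-values per direction, strand pairs of like direction under 0.05 at both positions, and the 5 regions with most CpGs outside dense runs. Chosen after their values were seen were the split by scaffold, the other regions of the first 4 scaffolds, the strand pair of opposite direction, the groups of CpGs of like coverage (within a ratio of 1.1) and the distances to PND14. Alternatives varied the coverage minimum, strand handling, test, FDR limit, weighting and joining distance. Positions are printed as deposited, with no source for whether the first base is 0 or 1.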

Additional observations from a re-analysis of the deposited data

How the results depend on the processing

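No paired analysis was possible because the tables hold 1 summed value per treatment, and for the same reason no replicate could be left out. The number of CpGs passing the adjusted Fisher's exact test, 7, was 6 to 8 under 5 alternatives (coverage of at least 20 or 50 reads, a chi-square test, strands summed, dense runs left out) and 4 without the first 4 scaffolds. Summing strands lost 26209818 on scaffold_25 (-18.5 points, Fisher's exact adjusted p = 0.0591) and added 2, the pair at 44404957 on scaffold_4 (-10.1 points, Fisher's exact adjusted p = 0.0239) and the pair at 67622633 on scaffold_1 (14.7 points, Fisher's exact adjusted p = 0.010). In the scaffold_4 pair, position 44404958 alone differed by -14.9 points, further than any other position of its region. That call thus rests mostly on 1 strand. The share of CpGs higher after betamethasone, 50.1%, was 54.4% at differences of at least 10 points, 77.6% on the first 4 scaffolds and 49.1% without them. The mean difference, 0.28 points, was 0.75 weighted by reads, 0.53 without dense runs, 8.58 on the first 4 scaffolds and -0.0206 without them. Of deep one-way regions, 17 in all, 11 were counted at a joining distance of 10000 bp and 10 without the first 4 scaffolds. Strand pairs with both positions under 0.05, 2 in all, were 0 at 0.01 and 2 among pairs that share no position. Of the 17 named regions, 1 turned its sign when joined at 10000 bp (0.165 to -0.0693 points, scaffold_7). The share of first p-values under 0.05 on the first 4 scaffolds, 50.3%, was 45.9% to 54.9% without each scaffold in turn and 51.5% at 50 reads or more. The checks by scaffold, that of pairs that share no position, that of the share of first p-values at 50 reads, and that of the test count without dense runs were chosen after seeing the data. The cause was not tested for any of these. The median counting SE of 4.24 points limits what could be seen at a single CpG.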
